A study of Rattus norvegicus with 8 samples.

Results

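The apoptosis regulators and caspases of the rat retina described here are 9 genes, Bcl2, Bcl2l1, Bax, Bak1, Bad, Bcl2l11, Bbc3, Casp8 and Casp9, chosen by name among the 26334 gene names of the arrays, with control spots left aside. They are read by 14 of 30367 probes and 23 of 42877 spots. The study asked how the retina's transcriptome differs after injury of the optic nerve. Female Lister Hooded rats, aged 8 weeks, had the right nerve crushed with forceps for 10 s, 3 mm behind the disc (ONC), or went through the same surgery without closing the forceps (CTR). Retinas were collected 2 weeks later, and the total RNA of 4 CTR and 4 ONC retinas was labelled with Cy3 or Cy5 and read on 4 arrays, a retina in each colour. The spots well above background, by the scanner software, made up 77.1% to 79.4% of all spots in the channels labelled CTR and 66.8% to 79.0% in those labelled ONC, and no spot was saturated. The number of arrays limits the precision, and all p-values measure the spread between these retinas.

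Apoptosis through the mitochondrion is set by the balance within the BCL2 family. Bcl2 and Bcl2l1 (BCL-XL) hold back the effectors Bax and Bak1, which open pores in the outer mitochondrial membrane, and BH3-only proteins such as Bad, Bcl2l11 (BIM) and Bbc3 (PUMA) relieve that restraint. Cytochrome c that leaks out then activates Casp9 on the apoptosome, while Casp8 starts the arm that runs from death receptors at the cell surface, and retinal ganglion cells (RGCs) cut off from their axon are a classic case of death that needs Bax.

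By the labels, the CTR retinas were all in Cy5 and the ONC retinas all in Cy3, with the retinas of the same number on one array. The methods describe another layout, with retinas of one group sharing an array and CTR1, CTR3, ONC1 and ONC3 in green. Dye and crush thus cannot be told apart here, and the groups below are channels by their label. RGC markers also went against the labels. Of 20 listed markers, 18 (Pou4f1 was not found by name and Nrn1 was too dim) passed the filter on dim spots described below, and the median of their log2 levels, each less the gene's mean over the 8 channels, was -0.97, 0.72, -0.81 and -0.57 in CTR1 to CTR4. It was 0.80, 0.91, 0.88 and -0.88 in ONC1 to ONC4. The markers were thus high in CTR2 and low in ONC4, against the other 3 channels of either label, and 18 of 18 were higher in the channels labelled ONC, with a median log2 difference of 0.85 (1.47 without CTR2 and ONC4). This direction, the first signed difference given, is opposite to that of the study, in which RGC markers are lower after the crush. Except for Rbpms, Pou4f1 and Isl1, the listed markers are those that the study lists as lower after the crush on these arrays. They were thus chosen for a difference between these groups, so that a shared sign and a large difference were likely beforehand. CTR2 and ONC4 are the channels in which these same markers went against the other channels of the label. A larger marker difference without these channels thus followed from the choice. Whether labels of channels were exchanged was not tested, and all signs below hold only for the labels as given. Log2 differences of the members and of the pathway genes selected by rule, where past the filter, are given with all 8 channels and also without CTR2 and ONC4.

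Of the 9 members, 7 genes with 12 probes and 20 spots passed the filter, which asks for a foreground of at least 2 times the local background in all 8 channels and no outlier mark, and which 16307 genes passed in all. Casp8 and Bcl2l11 were too dim. Levels below are log2 of the background-subtracted brightness after normalization, with the median spot of each channel at 0, so they show differences between channels and not amounts of RNA. In the limma comparison of the channels labelled ONC and CTR, 0 of the 7 members were called at an adjusted p under 0.05, where 81 genes or 0.497% of all were called (38 higher, 0.233%, and 43 lower, 0.264%). That balance moved with the processing. Of the genes called, 2267 of 3194 were higher without loess, 10 of 14 with the normexp background correction and 502 of 1254 with the array as a block. At an unadjusted p under 0.05 the members again gave 0, against 3025 genes or 18.6%, and the methods' t-test found 0 members, against 2682 genes or 16.4%. The unadjusted 0 became 1 (Casp9) without CTR2 and ONC4, where 3888 of 16307 genes passed, and 1 (Bcl2) without loess, where 5767 did. It became 1 (Casp9) with spots marked well above background, against 3002 of 15324 genes. With the brightest probe of each gene it became 2 (Bcl2l1 and Casp9), against 3163 of 16307 genes. With the array as a block for the pairing, 1254 genes or 7.69% were called, and 0 members. Without CTR2 and ONC4, 415 of 16307 genes were called and 0 members. In whole retina, fewer cells of a type and less RNA per cell cannot be told apart.

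**Figure D1:**
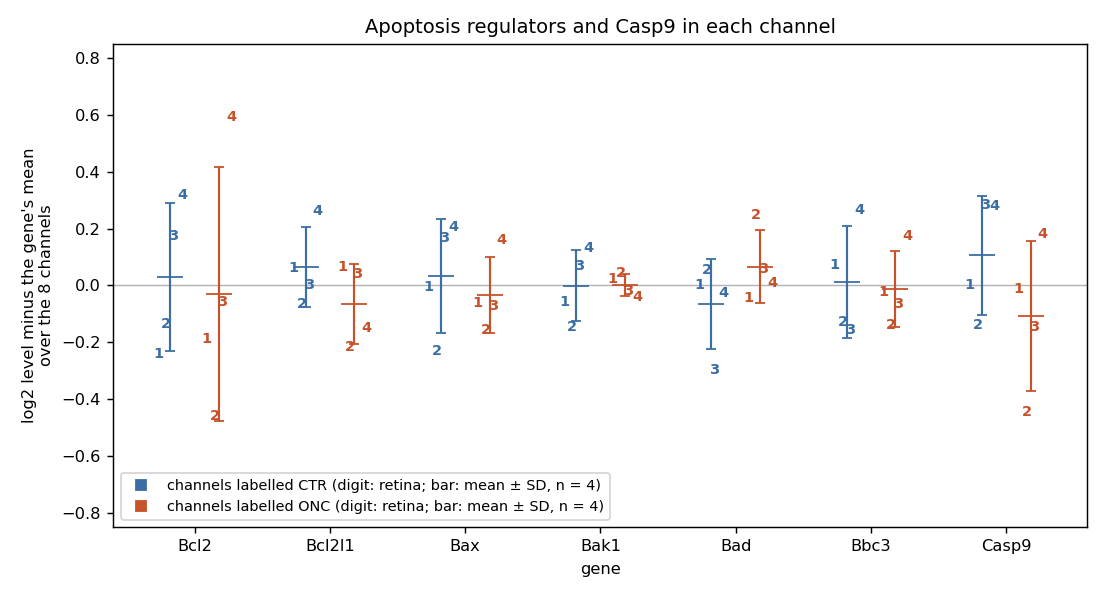
Log2 level of each member that passed the filter, less its mean over the 8 channels, with the digit giving the retina and the bar the mean ± SD (n = 4) of the channels labelled CTR (blue) and ONC (orange). The groups overlapped for all 7 genes, and the widest scatter was that of Bcl2, from -4.20 in ONC2 to -3.15 in ONC4 on the log2 level itself.

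Bcl2, the founding inhibitor of the family, was read by a single probe at chr13:12730740-12730799 (build rn4, minus strand). Its log2 level was -3.98, -3.88, -3.57 and -3.42 for retinas 1 to 4 labelled CTR, and -3.93, -4.20, -3.80 and -3.15 for those labelled ONC. ONC2 was the lowest and ONC4 the highest of all 8, so the ONC channels spanned the CTR channels on both sides. The log2 difference, ONC minus CTR, was -0.06 (standard error 0.22, adjusted p = 0.921 by limma), higher in ONC on 2 of 4 arrays. It was -0.32 without CTR2 and ONC4 (adjusted p = 0.305, against 0.101 to 1.0 over all alternatives). With channels only scaled to their median, without loess, it turned to 0.63. The spot was dim, at 2.04 to 4.01 times its background.

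Bcl2l1, whose long protein BCL-XL protects neurons and whose short splice form does the opposite, was read by 4 probes on chromosome 3. The average over them was 0.03, -0.10, -0.03 and 0.23 for retinas 1 to 4 labelled CTR, and 0.03, -0.25, 0.01 and -0.19 for those labelled ONC. The groups overlapped, with the lowest values in ONC2 and ONC4 and the highest in CTR4. This gave a log2 difference of -0.13 (standard error 0.11, adjusted p = 0.558), and -0.15 without CTR2 and ONC4 (adjusted p = 0.497, against 0.241 to 1.0 over all alternatives). Without loess it was 0.11.

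The 4 probes differed in sign, with 0 of them called. The first, A_44_P548065 at chr3:143178503-143178562 (rn4, minus strand), is shown because it begins at the start codon, in capitals, and so reads the first coding bases that both splice forms share.

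A_44_P548065: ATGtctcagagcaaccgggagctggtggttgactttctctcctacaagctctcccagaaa

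Its log2 level was -3.84, -4.18, -3.93 and -3.34 for retinas 1 to 4 labelled CTR, and -3.42, -3.96, -3.53 and -3.23 for those labelled ONC. On each of the 4 arrays the ONC channel was the higher one, although the groups overlapped. ONC minus CTR was, on log2, 0.29 (standard error 0.20, adjusted p = 0.495). It was 0.07 without CTR2 and ONC4, and median scaling without loess gave 0.95 (adjusted p = 0.0172), against 0.0172 to 1.0 over all alternatives, so that setting alone brought it past the threshold. The probe was at 2.05 to 4.77 times its background.

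A further pair, A_64_P008047 and A_64_P054735, lies up to 49415 bases further along the gene, at chr3:143129096-143129153 and chr3:143129088-143129147 (rn4, minus strand). The probes share 52 bases and differ at their 3′ ends, shown as bases 31 to 60 because the probes disagreed in ONC4, with the bases that each has to itself at the end in capitals.

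A_64_P008047: gcagttcagtaataaatggtgtctgtgaAA
A_64_P054735: cagtaataaatggtgtctgtgaCTCTGTGA

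Both ends hold the letters AATAAA, and A_64_P008047 ends in 2 and A_64_P054735 in 8 bases of its own. Both spots were bright, at 160 to 329 and 107 to 551 times the background. A_64_P008047 was at 2.98, 3.08, 2.98 and 3.31 for retinas 1 to 4 labelled CTR, and at 2.87, 2.85, 2.95 and 3.01 for those labelled ONC. The ONC channel was the lower one on 4 of 4 arrays, and the groups overlapped in ONC4 alone. Its log2 difference was -0.17 (standard error 0.098, adjusted p = 0.401), and -0.20 without CTR2 and ONC4.

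A_64_P054735 was at 3.79, 4.0, 3.97 and 4.04 for retinas 1 to 4 labelled CTR, and at 3.68, 3.59, 3.67 and 2.47 for those labelled ONC. All 4 ONC channels lay below all 4 CTR channels, with ONC4 far under the rest. It was the only one of 12 member probes whose groups did not overlap, against 2461 or 13.2% of 18599 probes and, for genes, 0 of 7 members against 12.7%. Its log2 difference was -0.60 (standard error 0.25, adjusted p = 0.249). Without ONC4 it was -0.30 (adjusted p = 0.141), and without CTR2 and ONC4 -0.29 (adjusted p = 0.149, against 0.0894 to 0.770 over all alternatives).

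The gap between the log2 values of these overlapping probes lay between 0.72 and 0.99 in 7 channels and was -0.53 in ONC4. That channel was 1.11 below the lowest of the other 7 in A_64_P054735, a gap reached or passed by 34 of 18599 probes (0.183%). The 25 kept spots nearest on the array, up to 3 positions away, had a median difference of 0.0073 between ONC4 and the mean of ONC1, ONC2 and ONC3, from -0.37 to 0.81. The drop was thus not shared by the neighbouring spots, and its cause was not tested.

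The remaining probe, A_64_P054730 at chr3:143176523-143176582 (rn4, minus strand), ranged from -3.30 to -2.82 in CTR and from -3.49 to -2.99 in ONC. Its log2 difference was -0.05 (standard error 0.14, adjusted p = 0.902), with an ONC channel that was higher on 2 of 4 arrays. Without CTR2 and ONC4 it was -0.16, and without loess it turned to 0.43. It was at 3.09 to 5.95 times its background.

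**Figure D2:**
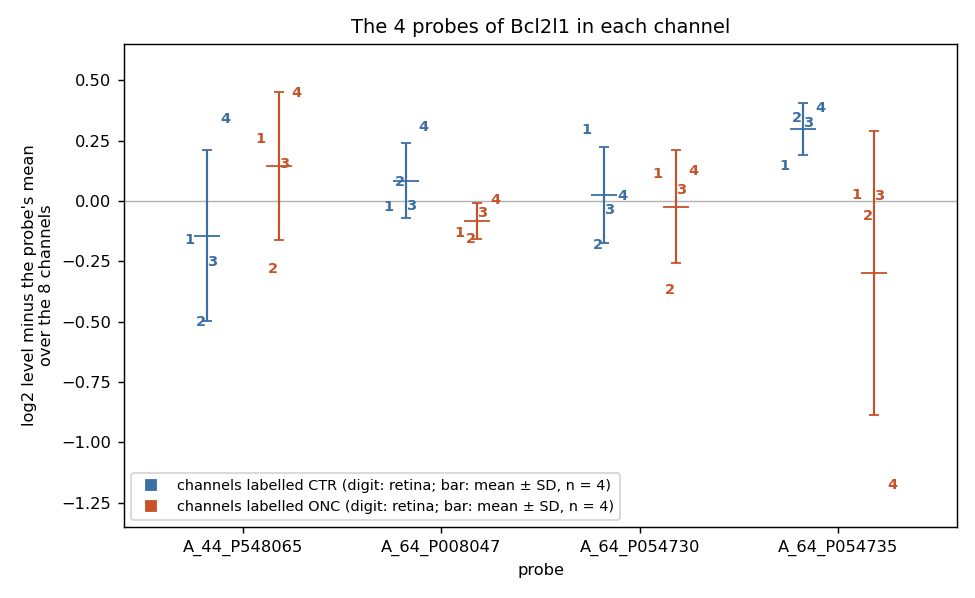
Log2 level of the 4 probes of Bcl2l1, each less its mean over the 8 channels, with the digit giving the retina and the bar the mean ± SD (n = 4) of the channels labelled CTR (blue) and ONC (orange). A_44_P548065 was higher in ONC on 4 of 4 arrays and A_64_P054735 lower on 4 of 4, and ONC4 of the latter stood alone at the bottom.

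Bax, the effector on which death of injured RGCs depends, was read by 2 probes that differed in sign. Their average was 0.04, -0.19, 0.21 and 0.25 for retinas 1 to 4 labelled CTR, and -0.02, -0.11, -0.03 and 0.20 for those labelled ONC. CTR2 was the lowest channel and CTR4 the highest, and all ONC channels lay between them. The log2 difference was -0.07 (standard error 0.12, adjusted p = 0.823), and -0.22 without CTR2 and ONC4 (adjusted p = 0.223, the lowest over all alternatives, against 1.0 as the highest).

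The probe A_43_P11800, to which the files give no position, was printed in 10 spots, 9 of them without an outlier mark. It is shown because it gave the lower value of the 2, and no bases are marked.

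A_43_P11800: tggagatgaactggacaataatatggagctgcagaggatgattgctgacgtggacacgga

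Its mean over the 9 spots was -1.01, -1.28, -0.92 and -0.80 for retinas 1 to 4 labelled CTR, and -1.29, -1.42, -1.29 and -1.10 for those labelled ONC. The ONC channel was the lower one on each of the 4 arrays, and the groups overlapped through CTR2 and ONC4. The 9 spots within a channel had an SD of 0.19 to 0.37, a standard error of their mean of 0.064 to 0.12. Between the groups the difference was -0.27 (standard error 0.12, adjusted p = 0.271). Without CTR2 and ONC4 the difference was -0.42 (adjusted p = 0.0717, against 0.0634 to 0.668 over all alternatives).

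The other Bax probe, A_64_P015183 at chr1:95932895-95932954 (rn4, minus strand), was at 1.09, 0.90, 1.35 and 1.29 for retinas 1 to 4 labelled CTR, and at 1.25, 1.19, 1.24 and 1.5 for those labelled ONC. Here ONC4 was the highest channel and CTR2 the lowest, with the others mixed. This gave a log2 difference of 0.14 (standard error 0.12, adjusted p = 0.599), higher in ONC on 3 of 4 arrays, and -0.02 without CTR2 and ONC4. Both probes were well above background in all 8 channels, and a direction for Bax rests on which of them is read.

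Bak1, the effector that sits in the mitochondrial membrane throughout, had the smallest range of all members. Its log2 level ranged from -0.93 to -0.65 in CTR and from -0.82 to -0.74 in ONC, which thus lay inside the CTR range. ONC minus CTR was, on log2, 0.0024 (standard error 0.086, 95% interval -0.19 to 0.20, adjusted p = 0.992), and -0.03 without CTR2 and ONC4. The range over the 8 channels was 0.28, at percentile 7.33 of all genes. Its probe lies at chr20:5256042-5256101 (rn4, minus strand).

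The balance of effector and inhibitor was followed as log2 Bax minus log2 Bcl2 within each channel, where only its change between channels can be read. It was 4.02, 3.69, 3.78 and 3.67 (mean 3.79 ± 0.16, SD, n = 4) for retinas 1 to 4 labelled CTR, and 3.91, 4.09, 3.77 and 3.35 for those labelled ONC (mean 3.78 ± 0.31, SD, n = 4). By loess the means were nearly alike, and the ONC channels held both the highest and the lowest value. The change, ONC minus CTR, was -0.0083 by loess, 0.10 without CTR2 and ONC4, and -0.67 without loess.

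Bax minus Bcl2l1 was 0.01, -0.09, 0.24 and 0.02 (mean 0.05 ± 0.14, SD, n = 4) for retinas 1 to 4 labelled CTR, and -0.05, 0.14, -0.03 and 0.39 for those labelled ONC (mean 0.11 ± 0.20, SD, n = 4). ONC4 was the highest, and the groups overlapped. The low ONC4 value of the A_64_P054735 probe enters the average of Bcl2l1, and so this balance and its ONC mean. The change was 0.06, -0.07 without CTR2 and ONC4, -0.16 without loess and 0.73 with the brightest probes.

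Among the BH3-only proteins, Bad, which binds BCL-XL when survival signals fade, ranged from 0.52 in CTR3 to 0.87 in CTR2 and from 0.77 in ONC1 to 1.06 in ONC2. The groups overlapped, CTR3 being the lowest channel and ONC2 the highest. Its log2 difference was 0.13 (standard error 0.11, adjusted p = 0.557), higher in ONC on 3 of 4 arrays. It was 0.19 without CTR2 and ONC4, 0.056 without CTR3, 0.073 without ONC2, 0.045 with the processed signal and -0.01 in the channels of retinas 2 and 4 of CTR with 1 and 3 of ONC, whose dye is the same in both layouts. The probe lies at chr1:209626000-209626059 (rn4, plus strand).

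Bbc3, a target gene of p53 and of stress signalling, ranged from -0.50 to -0.08 in CTR and from -0.48 to -0.17 in ONC, so the latter lay inside the former. The log2 difference was -0.03 (standard error 0.12, adjusted p = 0.935), and -0.14 without CTR2 and ONC4. It turned to 0.059 without CTR4 and to 0.017 without ONC2. The files give its probe no position.

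Bcl2l11, the BH3-only protein BIM, did not pass the filter. Its only spot, at chr3:115722606-115722665 (rn4, plus strand), was at 1.49 to 1.85 times the background in CTR and at 2.60 to 3.18 times in ONC, where the background itself was lower, with a median over spots of 26.0 to 29.5 against 55.0 to 56.5. The software marked it well above background in 3 of 8 channels, CTR2, CTR3 and ONC2. A comparison without the filter, with the normexp background correction, also covers this gene. A log2 difference there depends on the background, and none is given. In that comparison 0 of 9 members and 0 of 25942 genes (0%) were called, and 0 members had an unadjusted p under 0.05, against 1957 genes or 7.54%.

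Casp9, the initiator caspase of the mitochondrial arm, was read by 2 probes. Their average was -3.03, -3.17, -2.75 and -2.75 for retinas 1 to 4 labelled CTR, and -3.05, -3.48, -3.18 and -2.85 for those labelled ONC. The groups overlapped, but the ONC channel was the lower one on each of the 4 arrays. This gave a log2 difference of -0.21 (standard error 0.15, 95% interval -0.56 to 0.13, adjusted p = 0.509). It was -0.39 without CTR2 and ONC4 (adjusted p = 0.163, the lowest over all alternatives, against 1.0 as the highest), -0.099 without ONC2, and it turned to 0.25 without loess.

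Both Casp9 probes are shown whole, with no bases marked, because the difference came from the first of them. They lie 12708 bases apart on the plus strand, the first at chr5:160719541-160719600 and the other at chr5:160706833-160706892 (rn4).

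A_44_P238608: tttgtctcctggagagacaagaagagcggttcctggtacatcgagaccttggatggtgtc
A_64_P205127: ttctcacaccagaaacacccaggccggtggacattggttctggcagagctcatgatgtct

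A_44_P238608 was at -2.18, -2.30, -2.11 and -2.13 for retinas 1 to 4 labelled CTR, and at -2.42, -2.76, -2.92 and -2.21 for those labelled ONC. The CTR channels lay close together, and of the ONC channels ONC4 alone reached into their range. The probe was at 5.45 to 9.71 times its background. ONC minus CTR was, on log2, -0.40 (standard error 0.15, adjusted p = 0.207), -0.15 without loess, and -0.56 without CTR2 and ONC4 (adjusted p = 0.0781, the lowest over all alternatives, against 0.624 as the highest).

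A_64_P205127 ranged from -4.05 to -3.38 in CTR and from -4.20 to -3.44 in ONC. Its log2 difference was -0.03 (standard error 0.21, adjusted p = 0.962). It was -0.22 without CTR2 and ONC4 and turned to 0.64 without loess. It was at 2.19 to 4.92 times its background, and the software did not mark it well above background in 1 of 8 channels.

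Casp8, the initiator of the death receptor arm, was not well above background in any of the 8 channels. Its only spot, whose coordinates span 7087 bases at chr9:57428119-57435205 (rn4, plus strand), was at 1.30 to 1.46 times the background in CTR and at 2.71 to 3.13 times in ONC, and no fold change is given.

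**Figure D3:**
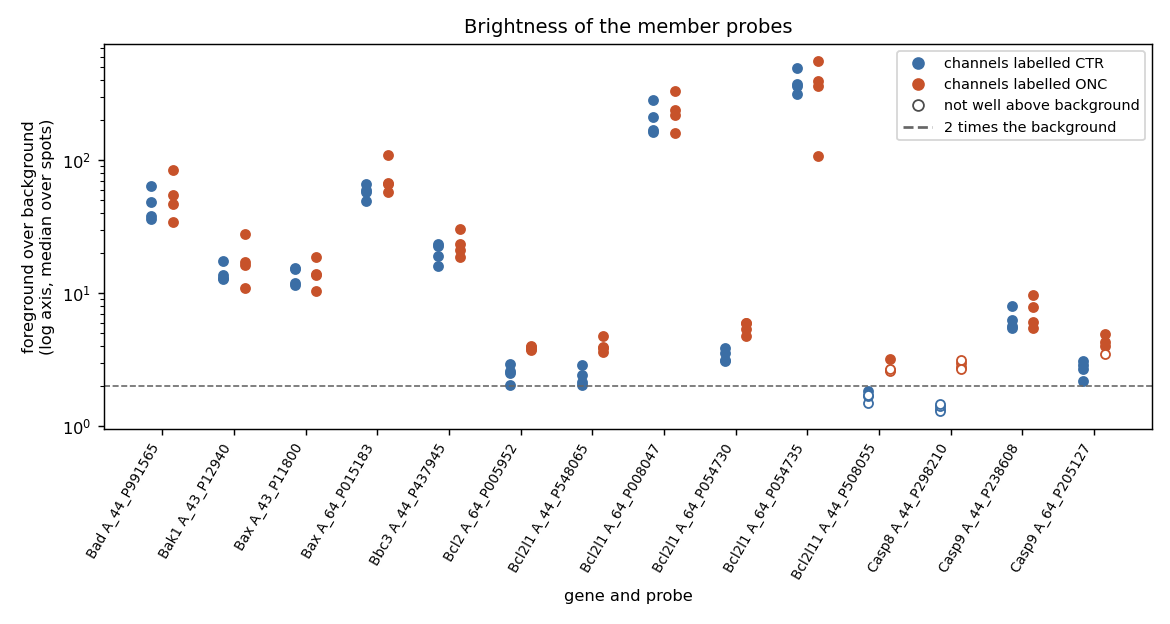
Foreground over local background of each member probe in each channel, on a log axis, with channels labelled CTR in blue and ONC in orange, open circles where the software did not mark every spot of the probe well above background, and a dashed line at 2 times the background. Casp8 and Bcl2l11 fell under that line in all 4 channels labelled CTR, at 1.30 to 3.13 and 1.49 to 3.18 times the background over the 8 channels.

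Over probes, limma called 0 of the 12 member probes, where 113 or 0.608% of all probes were called, and 0 with the array as a block, where 1522 or 8.18% were. At an unadjusted p under 0.05 were 2 of them, A_44_P238608 of Casp9 and A_64_P054735 of Bcl2l1, against 3486 or 18.7% of all. Both were lower in the channels labelled ONC. Under the block on the array, A_43_P11800 of Bax, also lower, and A_44_P548065 of Bcl2l1, which was higher, had an unadjusted p under 0.05 as well. Over genes, 5097 of 16307 passed that threshold under the block, and the share over all probes was not taken.

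Of the 7 members past the filter, 2 were higher and 5 lower in the channels labelled ONC, with a median log2 difference of -0.06 by loess but 5 higher with a median of 0.11 when only scaled to the median. Of all genes 47.4% were higher, with a median of -0.01 by loess and 0.07 by scaling. Without CTR2 and ONC4, 1 member was higher and 6 were lower, with a median of -0.15 against -0.06 for all genes. Without CTR4 alone, 4 members were higher, with a median of 0.04. With the processed signal 1 member was higher, with a median of -0.14. The median absolute difference was 0.0668 for the members and 0.140 for all genes, but over probes, before those of opposite sign are averaged, it was 0.135 for the 12 member probes and 0.145 for all. For the gene averages by loess with all 8 channels, the 95% intervals of the members all lay within -0.56 and 0.44. The interval of the A_64_P054735 probe reached -1.17, and without CTR2 and ONC4 that of Bcl2 reached -0.73.

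REV, the coefficient of variation of the normalized brightness within a group, widened for the number of measurements as in the methods, had a median over all genes of 25.1% in CTR and 21.7% in ONC. For Bcl2, the most variable member, it was 38.9% in CTR and 71.8% in ONC, from 1 spot at 2.04 to 4.01 times its background. GES, the percentile of stability that gives the steadiest gene 100, was thus 22.3 and 3.5 for Bcl2. In ONC, Bak1 stood at the other end, with a REV of 5.86% (13.2% with the processed signal) and a GES of 97.3, while in CTR it had 18.6% and a GES of 68.3. Some of these values rest on 1 channel. By the plain coefficient of variation, without the factor of the formula, Bcl2 in ONC went from 33.4% to 13.8% without ONC4. That of Bad went from 10.4% to 2.86% without CTR3 and, in ONC, from 9.07% to 3.55% without ONC2.

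For Bax, REV was 16.0% in CTR, the lowest of the members there, and 11.2% in ONC, with a GES of 76.5 and 82.9. Bax was read by 10 spots, and the factor of the formula is smaller for more spots. By the plain coefficient in CTR, Bax had 15.2%, above Bak1 (8.65%), Bad (10.4%) and Bbc3 (14%). REV of Bcl2l1 was 18.5% and 23.6%. Bad had 22.3% and 19.5%. All of these REV values but that of Bcl2l1 in ONC were below the median of the group. Without ONC4 that value was 15.6%, but the factor differs with 3 retinas, so it cannot be set against the median from 4. REV of Bbc3 was 30.1% in CTR and 20.5% in ONC, and that of Casp9 was 22.7% and 29.7%. The plain coefficient of Bbc3 went from 14% to 8.92% without CTR4 and, in ONC, from 9.54% to 4.06% without ONC4.

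The genes whose pattern over the 8 channels was closest to that of a member were sought among 10704 others with a symbol in the reference table, by Pearson correlation and as a description. With so few channels the closest gene is always near: the median best r was 0.979 over all genes. For Bax the closest were Il4r (r = 0.994) and Map3k6 (r = 0.989). Those for Casp9 were Mier2 (r = 0.993) and Egln2 (r = 0.992). For Bcl2 they were Rbm5 (r = 0.980) and Lsm6 (r = 0.964). The closest genes of Bax, Casp9, Bcl2 and Bbc3 were nearer than that median. Bbc3 was followed by Bcl6b (r = 0.983) and Fip1l1 (r = 0.972). Bcl2l1 was followed by Alox12b (r = 0.963) and Ndrg3 (r = 0.953). For Bak1 they were Zfpm1 (r = 0.965) and Myl12a (r = 0.931). The list closes with Bad, whose closest genes were Tgfb3 (r = 0.964) and Cse1l (r = 0.960).

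The wider pathway was described by lists of 66 genes, members included, of which 65 were on the arrays and 51 passed the filter. limma called 0 of the 51, against the 0.497% of all genes. At an unadjusted p under 0.05 were 3 higher and 1 lower, 7.84% against 18.6% of all genes. Under the block on the array, Bik, Xiap, Cycs and Aifm1 were higher at an unadjusted p under 0.05. Mcl1, Bok, Ripk3, Birc5, Casp1, Casp4 and Atf3 were lower there. These are among the 51, where 5097 of all 16307 genes passed that threshold. The methods' t-test gave 3 (Cycs, Mcl1 and Xiap), 5.88% against 16.4%. Of the 51, 22 were higher and 29 lower in the channels labelled ONC, with a median log2 difference of -0.06, and without loess 31 were higher and 20 lower, with a median of 0.05. Leaving out CTR2 and ONC4, 14 were higher and 37 lower, with a median of -0.14 against -0.06 for all genes, by loess. Without CTR4 alone, also by loess, 27 were higher and 24 lower, with a median of 0.0059. With the array as a block, 1 gene, Atf3, was called, 1.96% against 7.69%. Among the 44 past the filter that are not members, 20 were higher and 24 lower. The counts for single lists below are by loess and were not taken under median scaling.

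Of the 5 inhibitors of the BCL2 family past the filter, 2 were higher and 3 lower. Mcl1, a short-lived inhibitor of Bak1 and Bax, was at 0.16, 0.07, 0.23 and 0.06 for retinas 1 to 4 labelled CTR, and at -0.23, -0.29, -0.25 and -0.06 for those labelled ONC. All ONC channels lay below all CTR channels. The log2 difference was -0.34 (standard error 0.086, adjusted p = 0.0925), lower on 4 of 4 arrays. It was -0.41 without CTR2 and ONC4 and -0.21 with the processed signal. Median scaling gave -0.34 again (adjusted p = 0.0291), against 0.0291 to 0.433 over all alternatives.

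Of the 3 effectors, 1 was higher and 2 lower. Bok, a relative of Bax and Bak1, was lower on 4 of 4 arrays, with a log2 difference of -0.34 (standard error 0.15, adjusted p = 0.274), and -0.15 without CTR2 and ONC4. Of 10 BH3-only and BH3-like genes 5 passed the filter, 3 of them higher. Bik had a log2 difference of 0.29 (standard error 0.13, adjusted p = 0.269), higher on 3 of 4 arrays, and 0.14 without CTR2 and ONC4. Bmf, a BH3-only protein of the cytoskeleton, was at -0.27 (adjusted p = 0.685) and, chosen after its values were seen, at -0.75 without CTR2 and ONC4, with an adjusted p of 0.0292.

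Hrk, a BH3-only gene of neurons, did not pass the filter. Its probe A_42_P768355, in 10 spots, had a median of 1.38 to 2.58 times the background in CTR and 2.78 to 3.45 times in ONC. The single spot of A_64_P103844 was at 1.79 to 2.10 and 3.46 to 4.70 times. As for Bcl2l11, the lower background of the ONC channels enters these ratios, and no difference is given. Bnip3, at up to 1007 times the background, was left out for its outlier mark alone.

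Among the caspases, the 2 initiators past the filter, Casp9 and Casp2, were both lower. Casp1, which cleaves inflammatory cytokines, had a log2 difference of -0.28 (standard error 0.13, adjusted p = 0.312). It was -0.44 without CTR2 and ONC4, -0.16 with normexp, and turned to 0.18 without loess. Casp6, a caspase that cuts lamins, ranged from -3.67 to -2.78 in CTR and from -3.32 to -3.01 in ONC, inside the CTR range. The groups differed by 0.06 on log2 (standard error 0.17, adjusted p = 0.902), higher on 2 of 4 arrays. It was 0.56 by median scaling (adjusted p = 0.0424, against 0.0424 to 1.0 over all alternatives), -0.14 with the processed signal and -0.14 without CTR2 and ONC4.

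Of the 6 apoptosome and mitochondrial factors, 3 were higher and 3 lower. Cycs, which encodes cytochrome c, had a log2 difference of 0.21 (standard error 0.087, adjusted p = 0.237), higher on 3 of 4 arrays. It was 0.22 without CTR2 and ONC4, but 0.02 with its brightest probe alone. Of the 4 inhibitor of apoptosis proteins past the filter 2 were higher. Xiap, which blocks Casp9, was at -1.21, -1.06, -1.27 and -1.24 for retinas 1 to 4 labelled CTR, and at -0.74, -1.10, -0.62 and -0.91 for those labelled ONC. ONC2 alone reached the CTR range. Its log2 difference was 0.36 (standard error 0.11, adjusted p = 0.149), 0.43 without CTR2 and ONC4, and without loess 0.42 with an adjusted p of 0.0357, against 0.0357 to 0.542 over all alternatives.

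In the death receptor arm, 1 of the 7 genes past the filter was higher and 6 were lower. Ripk3, a kinase of necroptosis, had a log2 difference of -0.59 (standard error 0.33, adjusted p = 0.383), lower on 4 of 4 arrays. It was -0.91 without CTR2 and ONC4, -0.32 without CTR3 and -0.12 without loess. Of the 4 genes of nuclear execution, 2 were higher and 2 lower. Parp1, a DNA repair enzyme that caspases cut, had a log2 difference of -0.08 (standard error 0.095, adjusted p = 0.713), -0.16 without CTR2 and ONC4 and from -0.21 to 0.00095 over all alternatives.

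Of the 12 p53, JNK and stress inputs, 7 were higher and 5 lower. Atf3, a stress factor that injured neurons switch on, was at 0.32, -1.03, 0.90 and 1.86 for retinas 1 to 4 labelled CTR, and at -0.65, -1.53, -0.71 and 0.60 for those labelled ONC. CTR2 was low among the CTR channels and ONC4 high among the ONC channels, and the groups overlapped. The log2 difference was -1.09 (standard error 0.61, adjusted p = 0.385), lower on 4 of 4 arrays, and with the array as a block the adjusted p was 0.0327, against 0.0327 to 0.805 over all alternatives. Without CTR2 and ONC4 it was -1.99 (adjusted p = 0.0538), and with single retinas left out -1.60 to -0.64. Jun, the JNK target that accompanies it, had a log2 difference of -0.35 (standard error 0.28, adjusted p = 0.551). It was -0.61 without CTR2 and ONC4, but -0.08 without ONC2 and -0.02 in the 4 channels whose dye is the same in both layouts. Ddit3 (CHOP), a factor of the unfolded protein response, had a log2 difference of 0.02 (standard error 0.10, adjusted p = 0.954), which turned to -0.07 without CTR2 and ONC4, -0.07 without loess and -0.17 with the processed signal. Mapk8, which encodes JNK1, had a log2 difference of 0.16 and, chosen after its values were seen, was called without loess alone, at 0.54 (adjusted p = 0.0224).

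**Figure D4:**
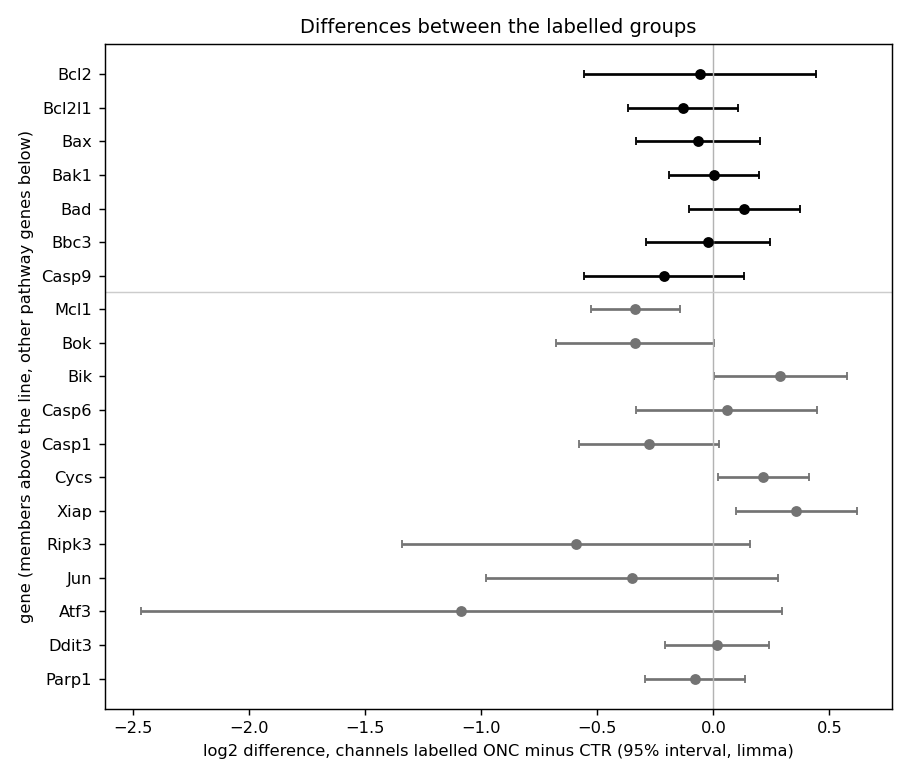
Log2 difference, channels labelled ONC minus CTR, with the 95% interval of limma, for the 7 members (black) and the other named genes of the pathway (grey). All 7 member intervals held 0, and those of Mcl1, Bik, Cycs and Xiap did not, although none of these passed after adjustment and Cycs fell to 0.02 with its brightest probe. Without loess Bcl2, Bcl2l1, Casp9, Casp1 and Ddit3 changed sign.

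Beside the members, cell type markers also varied between channels, and their part in the results was not tested. Of the 18 RGC markers, 1 (Isl1) was called, against 0.497% of all genes, with a log2 difference of 0.64 (standard error 0.081, adjusted p = 0.0418 by limma). This call was lost with any single retina but ONC2 left out and without the filter, where 0 genes were called. At an unadjusted p under 0.05 were 3 of the 18 markers, against 18.6% of all genes. The brightest was Ywhah, at 1.92, 2.81, 1.90 and 1.87 for retinas 1 to 4 labelled CTR, and 2.99, 2.97, 3.01 and 1.85 for those labelled ONC. The linear levels of the 18 markers summed to 19.4, 57.0, 21.2 and 24.0 for retinas 1 to 4 labelled CTR, and to 68.7, 69.7, 71.4 and 23.7 for those labelled ONC. CTR2 thus stood with ONC1, ONC2 and ONC3, and ONC4 with CTR1, CTR3 and CTR4. In Bax and in Casp9, CTR2 was the lowest CTR channel and ONC4 the highest ONC channel. The same held for the probes A_43_P11800 and A_64_P015183 of Bax, A_44_P238608 of Casp9, and A_44_P548065 and A_64_P054730 of Bcl2l1. Averaged by gene, Bcl2, Bcl2l1, Bak1, Bad and Bbc3 did not follow this pattern in both channels.

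Microglia and macrophage markers, 10 of 10 past the filter and 1 higher, had a median deviation of 0.06, -0.41, 0.57 and 0.53 for retinas 1 to 4 labelled CTR, and -0.28, -0.08, -0.32 and -0.06 for those labelled ONC. Their sum was 12.4, 11.5, 23.6 and 23.3 for retinas 1 to 4 labelled CTR, and 9.88, 14.6, 11.6 and 14.1 for those labelled ONC, with C1qb as the brightest. CTR3 and CTR4 were high, the channels in which Bax, Bak1 and Casp9 were also highest. Bad and Bbc3 were lowest in CTR3, Bcl2 was highest in ONC4, and Bcl2l1 was high in CTR4 but not in CTR3. Lens markers, 6 of 6 past the filter and 1 higher, had a median deviation of 1.24 in CTR2 and -0.62 to 0.34 in the other channels, with a sum of 172 in CTR2 against 49.8 to 100.5 elsewhere and Crygs as the brightest.

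For the remaining lists only the difference between the labels is given. Müller glia and astrocyte markers (6 of 7 past the filter, 2 higher) had a median log2 difference of -0.32, and the brightest was Glul. Rod and cone markers (8 of 9, 3 higher) had -0.14. Bipolar cell markers (6 of 6, 5 higher) had 0.20, and the brightest was Pcp2. Amacrine cell markers (7 of 7, 3 higher) had a median of -0.02, with Calb2 as the brightest. Pigment epithelium markers (4 of 7, 3 higher) had 0.19, with Ttr as the brightest. The medians were 0.15 for blood (4 of 4, 4 higher, Hbb-b1 the brightest) and 0.13 for endothelium (4 of 5, 3 higher, Kdr the brightest). Of the 39 genes of these 7 lists, 0 were called by limma, and 10 (25.6%) had an unadjusted p under 0.05, against 18.6% of all genes.

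**Figure D5:**
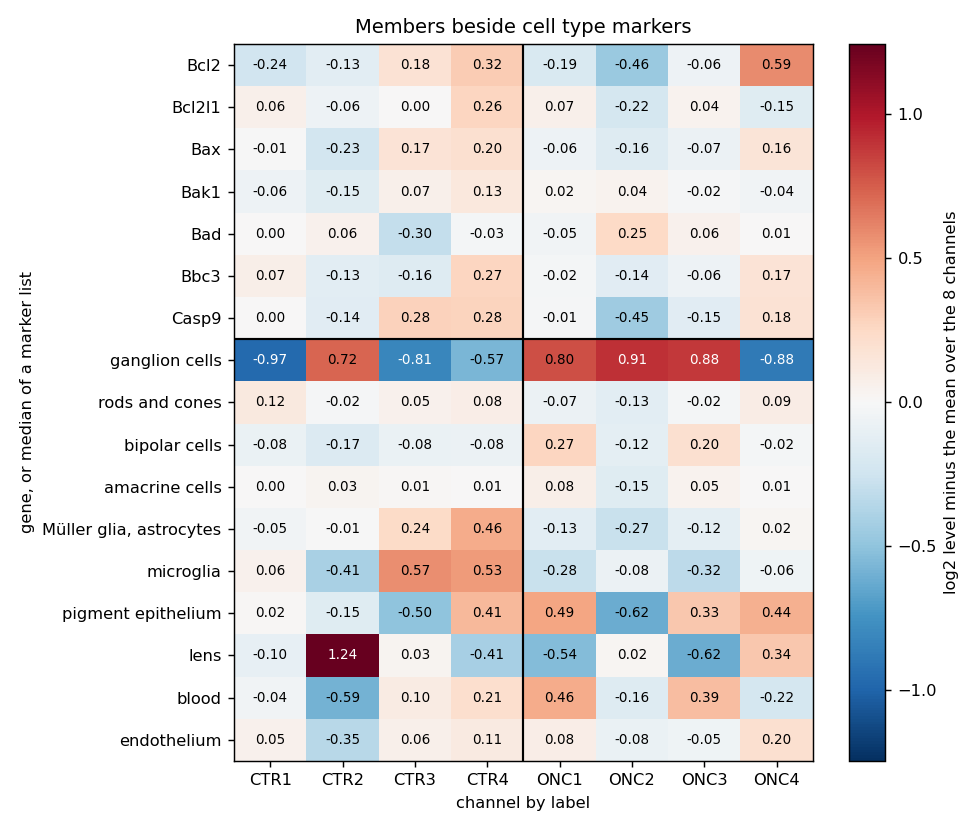
Log2 level less the mean over the 8 channels for each member (top) and the median of the same over each marker list (bottom), with red above and blue below the mean. RGC markers were high in CTR2, ONC1, ONC2 and ONC3 and low in the other 4 channels, and lens markers were highest in CTR2, at 1.24.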

How the data were processed

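The intensities are, for each spot, the pixel mean of the foreground with the pixel median of the local background that the authors deposited as text output of Agilent Feature Extraction (headers say 12.0.3.1 and labels 11.1.19.1), with probe positions on build rn4. Control spots were left out. Spots were kept when the foreground was at least 2 times the background in all 8 channels and no outlier mark (feature non-uniformity, feature population, background non-uniformity) was set. This set of marks was chosen among several tried because its spot count matched an earlier processing of these files, and 3 other sets are compared. Background was subtracted, loess was applied within each array, each channel was centred on its median, and log2 values were averaged over the spots of each probe and then over the probes of each gene. limma (lmFit and eBayes, two-sided, Benjamini-Hochberg over all genes or probes) compared the labels, n = 4 per group. Retinas of the same number correlated at r of 0.149, 0.549, 0.401 and 0.487 (the first below its highest r with another number, 0.171), so the array was also used as a block. Reference tables of another build served for names only. The code was tested on simulated data.

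The members and lists were chosen by name with earlier results of these data known. Named are all 9 members with every probe, other pathway genes called by limma with all 8 channels, Jun, Atf3, Ddit3 and Hrk always, the gene with the smallest unadjusted p in each list, the 2 genes with the highest Pearson r to each member, and the brightest gene of each marker list other than rods and cones. Bmf, Mapk8, Bnip3, Casp2, Aifm1, Birc5 and Casp4 were added after seeing the values. A few genes of the lists fixed beforehand were left out of the lists, the counts and the figures because results on them are not given, and all list values were computed without them.

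Tools were R 4.3.3, limma 3.58.1, data.table version 1.17.8, Python 3.11.15, numpy 2.4.6, pandas 2.3.3 and matplotlib 3.10.9.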

Additional observations from a re-analysis of the deposited data

Results flagged for a closer look

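Of 78 groups of 4 channels looked at, 6 held a channel far from the other 3 of its label, by the ratio of its gap to the range, and chance gives about 1 in 20 groups. For Bcl2l1 the probe A_64_P054735 had ONC4 at 2.47 against 3.59 to 3.68 (ratio 0.926), and A_64_P054730 had ONC2 at -3.49 against -3.07 to -2.99 (0.841). The median of the RGC markers in ONC4 was -0.88 against 0.80 to 0.91 (0.940). Bipolar cell markers had CTR2 at -0.17 with the others at -0.08 (0.939), pigment epithelium markers had ONC2 at -0.62 against 0.33 to 0.49 (0.855), and endothelium markers had CTR2 at -0.35 against 0.05 to 0.11 (0.867). All were kept, and the causes were not tested.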

How the results depend on the processing

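Members called stayed at 0 in all 24 alternatives. In several of these no gene at all was called, so that 0 members was the only possible outcome there. Members with an unadjusted p under 0.05, 0 of 7, were Casp9 with spots well above background, where 3002 of 15324 genes passed. Without loess it was Bcl2 (5767 of 16307 genes), with the brightest probe Bcl2l1 and Casp9 (3163 of 16307). Without CTR2 and ONC4 it was Casp9 (3888 of 16307). Genes called, 81, moved to 1254 with the array as a block, 14 with normexp, 0 without the filter (1957 unadjusted), 123 with spots well above background, 3194 without loess, 412 with Aquantile, 21 with the processed signal, 124 with the brightest probe, 0 to 38 with a retina left out, 415 without CTR2 and ONC4 and 0 in 4 channels alone. The methods' t-test gave 0 after adjustment, 2682 under its threshold and 510 with its fold. The 3 other sets of outlier marks, chosen after seeing the data, gave 79, 77 and 113. Other pathway genes called, 0, moved to 1 with the block, 4 without loess, 1 without CTR2 and ONC4 and 3 under the threshold of the methods' t-test.

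Of 27 log2 differences, 14 changed sign somewhere, 5 changed call (A_44_P548065, Mcl1, Casp6 and Xiap without loess, Atf3 with the block), Casp6 both, and 9 did neither. The block changed no other call among those described.

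Without loess the sign turned for Bcl2 (0.63), Bcl2l1 (0.11), Casp9 (0.25), A_64_P054730 (0.43), A_64_P205127 (0.64), Casp1 (0.18) and Ddit3 (-0.066). With the processed signal it turned for Bak1 (-0.075), A_64_P205127 (0.030), Ddit3 (-0.17), Casp6 (-0.14) and Parp1 (0.00095). Without CTR2 and ONC4 it turned for Bak1 (-0.031), A_64_P015183 (-0.017), Casp6 (-0.14) and Ddit3 (-0.069). In the 4 channels alone it turned for Bad (-0.0091), A_64_P054730 (0.16), A_64_P205127 (0.15) and Ddit3 (-0.091). The brightest probe turned Bax (0.14). Bak1 was -0.0013 in the methods' t-test and -0.0081, -0.0057 and -0.0036 with the other outlier marks.

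With a retina left out, values spanned 0 for Bcl2 (-0.27 to 0.085), Bak1 (-0.046 to 0.047), Bbc3 (-0.088 to 0.059), A_64_P054730 (-0.11 to 0.069), A_64_P205127 (-0.15 to 0.14), Casp6 (-0.090 to 0.21) and Ddit3 (-0.048 to 0.057). They kept their sign for Bcl2l1 (-0.17 to -0.065), Bax (-0.16 to -0.0099), Bad (0.056 to 0.17), Casp9 (-0.31 to -0.099), A_43_P11800 (-0.36 to -0.20), A_44_P238608 (-0.52 to -0.28), A_44_P548065 (0.17 to 0.45), A_64_P008047 (-0.20 to -0.093), A_64_P015183 (0.052 to 0.20), A_64_P054735 (-0.71 to -0.30), Jun (-0.50 to -0.079), Atf3 (-1.60 to -0.64), Mcl1 (-0.39 to -0.30), Bok (-0.42 to -0.22), Bik (0.20 to 0.37), Casp1 (-0.38 to -0.19), Cycs (0.18 to 0.27), Xiap (0.28 to 0.44), Ripk3 (-0.87 to -0.32) and Parp1 (-0.14 to -0.028). REV moved over 1.5 times in 25 alternatives, 24 of them with a retina left out, in 9 of 14 values. With 3 retinas the factor of the formula is itself 1.58 times that with 4 for a gene with 1 spot. Without the factor, 6 of 56 spreads with a retina left out moved over 1.5 times, all 6 down. Causes were not tested.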
